A study of Homo sapiens with 16 samples.

Results

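The data described here are the ChIP-Seq peaks that the POLK-/- list shares with the DDX23-/- list. A peak of the POLK-/- list was a member when it overlapped a peak of the DDX23-/- list by at least 1 bp, and each member was matched with the overlapping DDX23-/- peak of the highest fold. Members were thus chosen by called positions in both lists, and partners by their DDX23-/- fold. Of the 2451 POLK-/- peaks, 2265 had a partner (92.4%, 95% confidence interval 91.3 to 93.4, exact binomial), and they used 2256 of the 5945 DDX23-/- peaks. The pairing was 1-to-1 in 2239 cases, 8 POLK-/- peaks overlapped 2 DDX23-/- peaks, and 18 POLK-/- peaks shared a partner with another. At the edge of the rule, the smallest overlap was 25 bp at SYNRG (POLK-/- fold 6.66), followed by 43 bp at MDM2 (fold 5.98). The nearest unpaired POLK-/- peaks missed a DDX23-/- peak by 35 bp at STK35 (fold 5.17) and by 121 bp at MTIF3 (fold 5.29).

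The series holds 16 samples of HEK293T, an established human embryonic kidney cell line, and 12 of them carry the prefix R_, which the labels and the paper do not explain. These 12 are 2 pulldown and 2 control libraries for each of 3 genotypes, wild type (WT), POLK-/- and DDX23-/-, all without treatment. The labels name the antibody of the pulldowns as Polk, whereas the protocol describes anti-FLAG gel, and no tag is stated for any of these genotypes. There is 1 peak list per genotype, so no value below has a replicate and no test between genotypes was possible. The deposit assigns each list to replicate 1 of its genotype, but the peak names inside the DDX23-/- list carry another number, so it is uncertain which library it came from. Whether each knockout line is a single clone was not stated in the labels.

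Pol κ is a Y-family DNA polymerase that copies past damaged bases, and its gene, POLK, is labelled as knocked out in one of the genotypes compared. DDX23 is a DEAD-box RNA helicase of the U5 small nuclear ribonucleoprotein of the spliceosome. Many of the strongest pairs lay on genes read by RNA polymerase III (Pol III). A tRNA gene is read from promoter elements inside the transcribed sequence, an A box and a B box that the factor TFIIIC binds, whereas U6, 7SK, RMRP and Y RNA genes use elements upstream of the start. Neither knockout could be checked from the peaks. No POLK-/- peak lay within 10 kb of POLK or DDX23, and there was no pair at either gene. A peak at the POLK start was present in the WT list (fold 6.36) and in the DDX23-/- list (fold 6.71), and a peak at DDX23 was present in the DDX23-/- list alone (fold 5.69). The cell line could not be checked either, because no expression was measured.

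A tRNA-type site was an A box followed, after 24 to 110 bp, by a B box, written GGTTCNANNCC or GGATCNANNCC and searched on both strands. Such a site was held by 239 pairs (10.6%). Among other regions it was found in 0 of 186 unpaired POLK-/- peaks, in 23 of 3689 unpaired DDX23-/- peaks and in 23 of 35116 RefSeq promoters of 300 bases (0.0655%, GRCh38.p14). The sequences that follow are shown because near-copies of one tRNA gene differed widely in POLK-/- fragments, from weak sites to sites near the ceiling described below. They were read from the GRCh37 reference (hg19 coordinates), 5′ to 3′ on the strand given, with the A box and the B box in capitals. The first 3 carry the cysteine anticodon GCA, and the fourth resembles them but has 1 letter off the searched pattern in each box. The next 3 carry the alanine anticodon AGC.
Cys, chr4:124430004-124430081 (-): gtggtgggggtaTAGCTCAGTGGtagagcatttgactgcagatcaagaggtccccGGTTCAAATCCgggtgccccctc
Cys, chr17:37309986-37310063 (-): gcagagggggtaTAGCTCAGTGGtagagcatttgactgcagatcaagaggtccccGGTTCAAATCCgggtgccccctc
Cys, chr7:149404755-149404832 (+): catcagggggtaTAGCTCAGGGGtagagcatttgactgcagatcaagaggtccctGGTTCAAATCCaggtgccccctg
Near-Cys, chr7:149361910-149361987 (+): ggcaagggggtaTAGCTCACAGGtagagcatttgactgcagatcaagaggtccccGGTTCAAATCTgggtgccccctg
Ala, chr6:26751913-26751991 (+): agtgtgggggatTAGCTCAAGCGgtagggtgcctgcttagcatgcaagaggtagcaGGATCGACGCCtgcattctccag
Ala, chr6:26673585-26673663 (+): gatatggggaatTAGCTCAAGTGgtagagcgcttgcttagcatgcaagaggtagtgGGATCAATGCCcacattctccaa
Ala, chr6:28831461-28831538 (-): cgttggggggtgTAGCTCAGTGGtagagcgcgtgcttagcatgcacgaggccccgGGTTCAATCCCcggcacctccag

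Each peak was deposited with a fold, the ratio of fragments at its summit to the local background with 1 added to both. The fragments and the background behind each fold were recovered from the fold and the deposited p for every peak. By an inferred depth, the DDX23-/- list came from the deepest library, 1.67 times POLK-/-, and WT from the shallowest, 0.424 times. This depth is the genome-wide background in fragments per point over the shortest peak in bp. The background was 0.573 fragments per point in WT, 1.25 in POLK-/- and 1.944 in DDX23-/-. The fewest fragments at a summit were 6 in WT, 10 in POLK-/- and 14 in DDX23-/-, and the weakest −log10 p was 5.28, 4.70 and 4.48. Depth and genotype cannot be told apart in these lists. For this reason the fold is given beside a fragment level, which is the fragments at the summit, scaled as in the deposited list, over the genome-wide background level of the same list. Counting intervals of this level (95%, exact Poisson) cover counting error only.

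Shared peaks were stronger in the DDX23-/- list by the deposited fold. The median fold was 7.33 in POLK-/- and 11.4 in DDX23-/-, and the folds ran from 1.89 to 115.7 in the one and from 1.88 to 110.9 in the other. The median ratio of DDX23-/- to POLK-/- within pairs was 1.44 (1.41 to 1.48, 95% interval from order statistics, n = 2265 pairs), with 5% of pairs below 0.70 and 5% above 2.97. The fold was higher in DDX23-/- for 1809 pairs (79.9%, 78.2 to 81.5). It was at least 1.5 times higher in 1048 pairs (46.3%) and at least 1.5 times lower in 90 (3.97%). These measures come from the lists that chose the pairs and are a description. The intervals treat pairs as a sample of peaks and say nothing of how cultures vary.

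The gap was smaller in the fragment level. The median number of fragments at the summit was 28 in POLK-/- and 53 in DDX23-/-. Beside these, the genome-wide background was 1.25 and 1.944 fragments per point, and the inferred difference in depth was 1.67-fold. The median ratio of fragment levels was 1.13 (1.12 to 1.16), and the median ratio of local backgrounds, each relative to its list's genome-wide level, was 0.833 (0.795 to 0.850). The fragment level was at least 1.5 times higher in 476 pairs (21.0%) and at least 1.5 times lower in 123 (5.43%). The counting intervals lay apart with the higher level in DDX23-/- for 168 pairs (7.42%) and with the lower level there for 111 (4.9%). Across the 2265 pairs, Spearman's rho between the lists was 0.781 for fragments, 0.630 for fold and 0.161 for background. The variance of the log2 ratio of fragments to background was 0.706, against 0.627 for the background part and 0.260 for the fragment part, with −0.180 from their covariance. The background was a whole number of control fragments in 1005 POLK-/- members (44.4%) and in 926 of their partners (40.9%), most often 5 or fewer. All points share the same pair of libraries, so these values are given without a p.

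**Figure D1:**
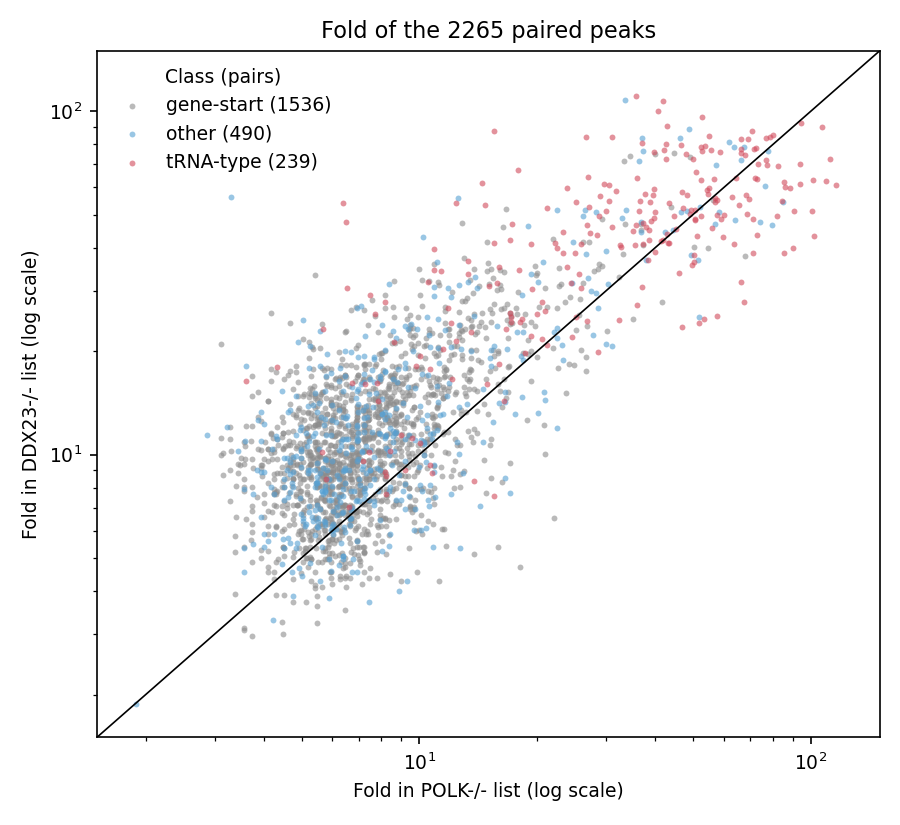
Deposited fold of each of the 2265 pairs in the POLK-/- list (x axis) and in the DDX23-/- list (y axis), both on log scales, with the class of the pair in colour. Most points (1809) lie above the line of equal fold, and the tRNA-type pairs lie toward the strong end of both axes.

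Pairs were placed in 3 classes, tRNA-type (239 pairs), gene-start (1536 pairs, a summit within 1 kb of the start of a coding gene and no tRNA-type site) and other (490). The tRNA-type pairs were by far the strongest, with a median fold of 37.0 in POLK-/- and 45.4 in DDX23-/-. The gene-start pairs had 6.94 and 10.6, and the others 7.21 and 11.2. The median ratio of fragment levels was 0.904 (0.854 to 0.946) at tRNA-type pairs, 1.17 (1.14 to 1.19) at gene-start pairs and 1.15 at the others, whereas the fold ratio was above 1 in each class, at 1.24, 1.48 and 1.38. Counting intervals lay apart, higher then lower in DDX23-/-, for 28 and 63 tRNA-type pairs, 95 and 20 gene-start pairs, and 45 and 28 others. The classes differed in strength, and the 141 tRNA-type pairs under 200 POLK-/- fragments had a ratio of 1.08 (1.02 to 1.16).

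The ratio of fragment levels fell with the strength of the peak. It was 1.29 where the POLK-/- summit held under 20 fragments, 1.17 for 20 to 50, 1.12 for 50 to 100, 0.941 for 100 to 200, 0.836 for 200 to 300 and 0.687 at 300 or more. At matched strength the classes were close or tRNA-type pairs higher, at 1.302 against 1.168 for 20 to 50 fragments and 0.839 against 0.826 for 200 to 300. At 300 fragments or more the 48 tRNA-type pairs gave 0.686 and the 12 remaining pairs gave 0.694. Grouped by DDX23-/- fragments instead, with the same limits, the ratio was 0.643, 1.03, 1.33, 1.31, 0.944 and 0.758, so the fall at the weak end depends on which list sets the groups and the fall at the strong end does not. A ceiling on fragments per summit moved with this trend. The most fragments at any summit were 456, 402 and 390 in WT, POLK-/- and DDX23-/-, close to double the shortest peak in bp (456, 422 and 392). At 90% of that value or above lay 67 DDX23-/- members of the pairs, 57 of them tRNA-type, and 7 POLK-/- members. The part of the ceiling in the ratio of strong pairs was not tested.

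**Figure D2:**
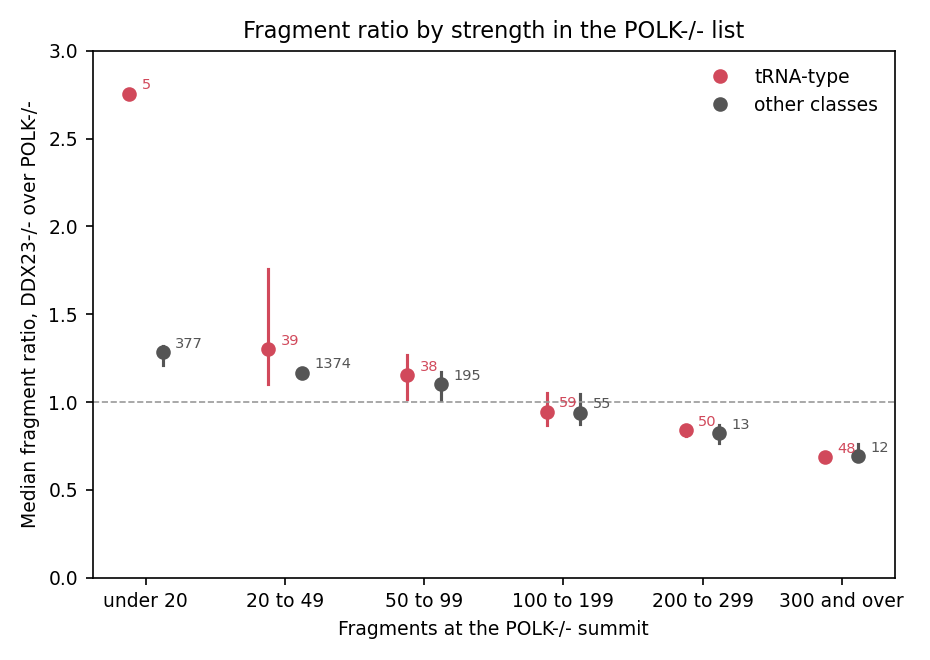
Median ratio of fragment levels, DDX23-/- over POLK-/- (y axis, linear), by the number of fragments at the POLK-/- summit (x axis, 6 groups), for tRNA-type pairs and for the other classes. Bars are 95% order-statistics intervals (none for the 5 tRNA-type pairs under 20 fragments), small figures give the pairs, and both series fall below 1 from 100 fragments on, to 0.686 and 0.694 in the last group.

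Of the 10 pairs with the smallest sum of ranks, 9 were tRNA-type and all 10 had a WT peak. They were chosen for a high rank in both lists, so a small change of percentile rank (100 for the strongest peak of a list) was fixed by the choice. The site at chr6:28715584 had fold 107 and rank 4 in POLK-/- and fold 89.9 and rank 8 in DDX23-/-, on 297 and 375 fragments. The site at chr6:26575876 had folds of 94.6 and 92.3 on 260 and 366 fragments. The site at chr2:157257280, nearest the coding gene GPD2, had folds of 112 and 72.7 on 311 and 368 fragments. The ratio of fragment levels in the 10 was 0.611 to 0.935, and the counting intervals of 5 lay apart, lower in DDX23-/- (4.9% over all pairs). These 5 had 311 to 374 POLK-/- fragments, and all 60 pairs with 300 or more lay apart downward. Of the 5, the site at KCTD2 had 310 DDX23-/- fragments. The others had 364 to 377, near the ceiling of 390 described above, which limits the ratio. The sites at chr6:28715584 and chr6:26575876 were also near it.

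Among tRNA-type pairs, those with a cysteine anticodon had the highest ratio of fragment levels. An anticodon could be read from the sequence at 210 of the 239 sites. Sites with GCA numbered 16 on 6 chromosomes, with a median of 108.5 fragments in POLK-/- and 294 in DDX23-/-, and the median ratio of levels was 1.75 (0.822 to 2.10). The intervals lay apart upward in 10 of the 16 and downward in 3. The 10 sites with higher levels were the 10 with under 200 POLK-/- fragments, at 1.61 to 2.98 times (median 2.01, 1.74 to 2.35), and they lay on chromosomes 3, 4, 7, 14 and 15. The other 6, on chromosomes 7 and 17, had 218 to 359 POLK-/- fragments and ratios of 0.664 to 1.15, which the ceiling on DDX23-/- fragments limits. Against these, the 207 tRNA-type pairs with neither of the GCA and AGC anticodons had a median of 0.886 (0.848 to 0.935), and the 123 of them under 200 fragments had 1.02 (0.983 to 1.11), with 13 apart upward. The grouping by anticodon and the limit of 200 fragments were chosen after the values were seen, so this is a description without a test.

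Single cysteine sites show how far near-identical copies differed. The chr4 site printed above went from 25 to 116 fragments, and the chr17:37309986-37310063 site from 359 to 371, although their letters from A box to B box are identical. The chr3 summits at 131947945 and 131950708 went from 115 to 312 and from 110 to 276. The sites on chromosomes 14 and 15, at summits 73429695 and 80037001, went from 81 to 264 and from 38 to 139. Each of these weaker copies gained more fragments than the inferred 1.67-fold difference in depth would give. The chr17 copy stood near the 390 fragments that were the most at any DDX23-/- summit, so its own change could not be read. On chromosome 7 a cluster held 7 of the 16, and the chr7:149404755-149404832 site printed above went from 97 to 266. Its neighbours at summits 149332780, 149007340 and 149028204 went from 107 to 319, from 62 to 202 and from 84 to 236. In the same cluster 149344100 and 149388341, already at 218 and 268 fragments in POLK-/-, reached 389 and 369, at or near the same ceiling. The 5 low sites on chromosome 7 had a median ratio of 1.92 and the 5 on other chromosomes 2.10. Pairs without a tRNA-type site were also higher on chromosome 7, at 1.34 (1.25 to 1.46, 94 pairs), and the 5 gene-start pairs near the cluster had 1.41. Whole chromosomes differed as well. Over all pairs, the medians ran from 0.867 (0.804 to 0.926) on chromosome 3 to 1.41 (1.18 to 1.64) on chromosome 22. The part of this spread in the ratios of single pairs and lists was not tested. How aligned reads were divided between near-identical copies was not tested.

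Alanine sites with AGC included weak sites with large ratios. Of the 16 pairs, 8 had under 200 POLK-/- fragments, with a median ratio of 2.75 (1.05 to 7.43), and the intervals of 5 lay apart upward. The site at chr6:26751941 went from 16 to 185 fragments, the largest ratio of levels in all pairs at 7.43, and had no WT peak. On the same chromosome the summits at 26673709, 26682721, 26705684 and 58196706 went from 20 to 140, from 37 to 183, from 45 to 162 and from 27 to 136. All 5 hold a B box in its GGATC form, but so do AGC sites that did not lie apart upward. These are at summits chr6:26572136 (ratio 0.751) and chr2:27274116 (0.741), both apart downward, and chr14:89445471 (1.304, intervals overlapping). The third alanine site printed above had 391 and 390 fragments, at the ceiling, so its change could not be read. By amino acid, the median ratio over all sites was highest for cysteine (1.744, 17 pairs, 1 of them with ACA), followed by asparagine (1.267, 7 pairs), and lowest for lysine (0.749, 18 pairs). Strength differed between these groups, and the 3 lysine sites with under 200 POLK-/- fragments had a median of 1.614.

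**Figure D3:**
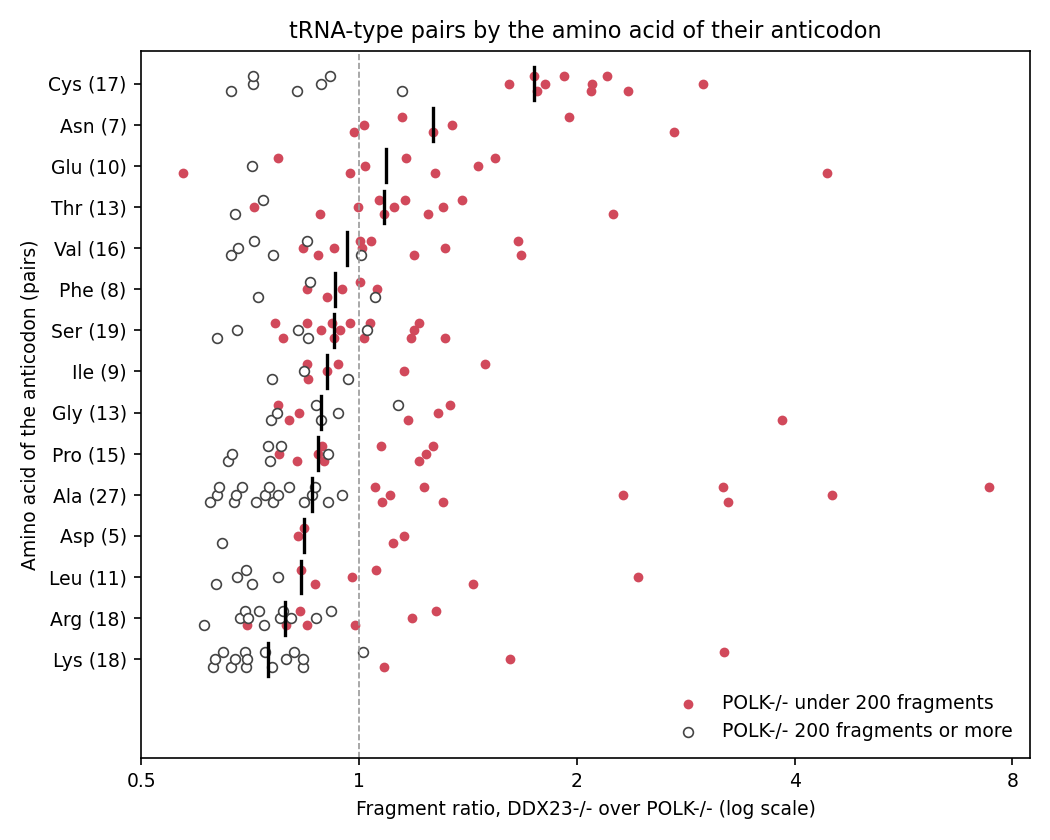
Ratio of fragment levels, DDX23-/- over POLK-/- (x axis, log scale), of tRNA-type pairs by the amino acid of their anticodon, for amino acids with at least 5 pairs. Each point is a pair (filled under 200 POLK-/- fragments, open from 200 on) and the bar is the median, with the 10 filled cysteine points all above 1.5 and the lysine median lowest at 0.749.

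The WT list was not used by the rule. A WT peak overlapped 1109 pairs (48.96%, 46.9 to 51.0), against 6 of 186 unpaired POLK-/- peaks (3.23%). Over those 1109 pairs the median fragment level was 0.904 times as high in WT as in POLK-/- (0.877 to 0.923) and 1.29 times as high in DDX23-/- as in WT (1.26 to 1.32). Over the 219 tRNA-type pairs among them, the same values were 0.845 and 1.11. For the 9 cysteine sites under 200 fragments with a WT peak, WT was 0.897 times POLK-/- (0.63 to 0.976), and DDX23-/- was 2.48 times WT (1.84 to 3.11) and higher in 9 of 9. For the 6 such alanine sites DDX23-/- was 2.29 times WT and higher in 6 of 6. In the 106 remaining tRNA-type pairs under 200 fragments, WT was 0.781 times POLK-/-, and DDX23-/- was 1.32 times WT (1.26 to 1.43) and higher in 93. By these medians, WT was nearer to POLK-/- than to DDX23-/- at the cysteine and alanine sites under 200 fragments. This order was not particular to them, because it also held over all 1109 pairs. Over the 219 tRNA-type pairs, WT was nearer to DDX23-/-. The anticodon groups and the limit were chosen after the ratios of DDX23-/- to POLK-/- were seen, which favours the order at the cysteine and alanine sites. The lists contain only called peaks, and the WT peaks used are those strong enough to be called in the shallowest library.

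Percentile ranks rose for most pairs, in a DDX23-/- list that also held 3689 peaks without a partner (median fold 6.42). The median percentile was 51.8 in POLK-/- and 78.0 in DDX23-/-, and the median change was 14.7 points (13.5 to 16.4). Ranked among the pairs alone, the median change was −0.55 points, but gains and losses of rank balance there by construction. The general rise thus only describes how pairs stood against the unpaired peaks of each list. A rise of 25 points or more was found in 828 pairs (36.6%) and a fall of that size in 97 (4.28%), against 340 and 321 when ranked among the pairs alone. Of the 828, 714 (86.2%) also rose by 25 points when peaks were ranked by p, and of the 97, 32 (33.0%) also fell. Among those that rose the median ratio of levels was 1.34 and of backgrounds 0.629, with intervals apart upward in 83 (7.42% over all pairs) and downward in 2. Among those that fell the same medians were 0.836 and 1.83, with intervals apart downward in 9. Over all pairs, rho of the change of rank was −0.575 with the background ratio and 0.500 with the fragment ratio. Ranks are by fold, which holds both terms, so relations of this sign are built into the measure.

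The largest rise of rank was at the near-Cys site printed above. Its peak at chr7:149361735-149362026, 49953 bp from the nearest coding gene KRBA1, went from fold 3.30 to 56.4 and from rank 2437.5 to 89. Its fragments went from 30 to 255, while its background fell from 6 to 2. The fragment level rose 5.47 times, with its intervals apart, and in WT it was 1.745 times POLK-/-. GLRX3 (a monothiol glutaredoxin, chr10:131934410-131934757) went from 3.11 to 21.0 and from rank 2448 to 474, on 24 and 74 fragments. SPINDOC (which binds the histone reader SPIN1, chr11:63580567-63580793) went from 4.18 to 25.8 on 27 and 116. HNRNPAB (an RNA-binding hnRNP protein, chr5:177631095-177631657) went from 4.67 to 24.2 on 62 and 145. DLD, a subunit of the mitochondrial dehydrogenase complexes, went from 3.75 on 19 fragments to 16.96 on 62, and NCSTN, the γ-secretase subunit nicastrin, from 3.88 to 15.3 on 25 and 71. PCNP, TANC1 and UBAP2 reached 17.8, 14.9 and 16.4 from 4.18, 3.73 and 4.18. The other 3 were tRNA-type or intergenic, in the pseudogene PDE4DIPP4 on chromosome 1 (3.60 to 16.4) and nearest to STX11 (4.34 to 18.0) and RNF144B (3.61 to 18.1). In all 12 the background relative to the genome-wide level was lower in DDX23-/-, at 0.153 to 0.383 times, with fragment ratios of 1.19 to 5.47 and intervals apart in 4.

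The pairs that fell most had a higher relative background in 11 of 12, at 0.956 to 4.31 times. As with the rises, a change of background enters the fold and so the choice of these pairs. TERF1, the telomere-repeat binding factor of shelterin, went from fold 18.0 to 4.70 and from rank 309.5 to 5444, on 49 and 27 fragments. Its level was 39.2 (29.0 to 51.8) in POLK-/- and 13.9 (9.2 to 20.2) in DDX23-/-, the lowest fold ratio of all pairs at 0.261. ZRANB3 (an annealing helicase at stalled forks, chr2:136288137-136288972) went from 15.9 to 5.36 on 40 and 31. At EPHA7, an ephrin receptor, the fold fell from 13.8 to 5.14 while fragments went from 36 to 53 and the background from 1 to 6. The counting intervals of the level overlapped in 8 of the 12, among them EPHA7, KBTBD6 (fold 11.2 to 4.29), ABT1 (8.99 to 4.29), HNRNPK (11.7 to 5.40), NUP85 (9.87 to 4.56) and NKRF (8.43 to 4.48). Overlap of these intervals is not a test of a difference. The ratio of levels at the 6 named ran from 0.559 at NUP85 to 1.10 at NKRF, where the level was not lower. The intervals lay apart at the other 4, TERF1, ZRANB3, the antisense RNA MATN1-AS1 (12.7 to 5.35, 59 and 39 fragments) and an unlocalized contig of chromosome 17 (8.88 to 4.00). ATP8A1, a phospholipid flippase, had the second lowest fold ratio, 0.296, from 22.04 to 6.53 on 57 and 48 fragments.

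**Figure D4:**
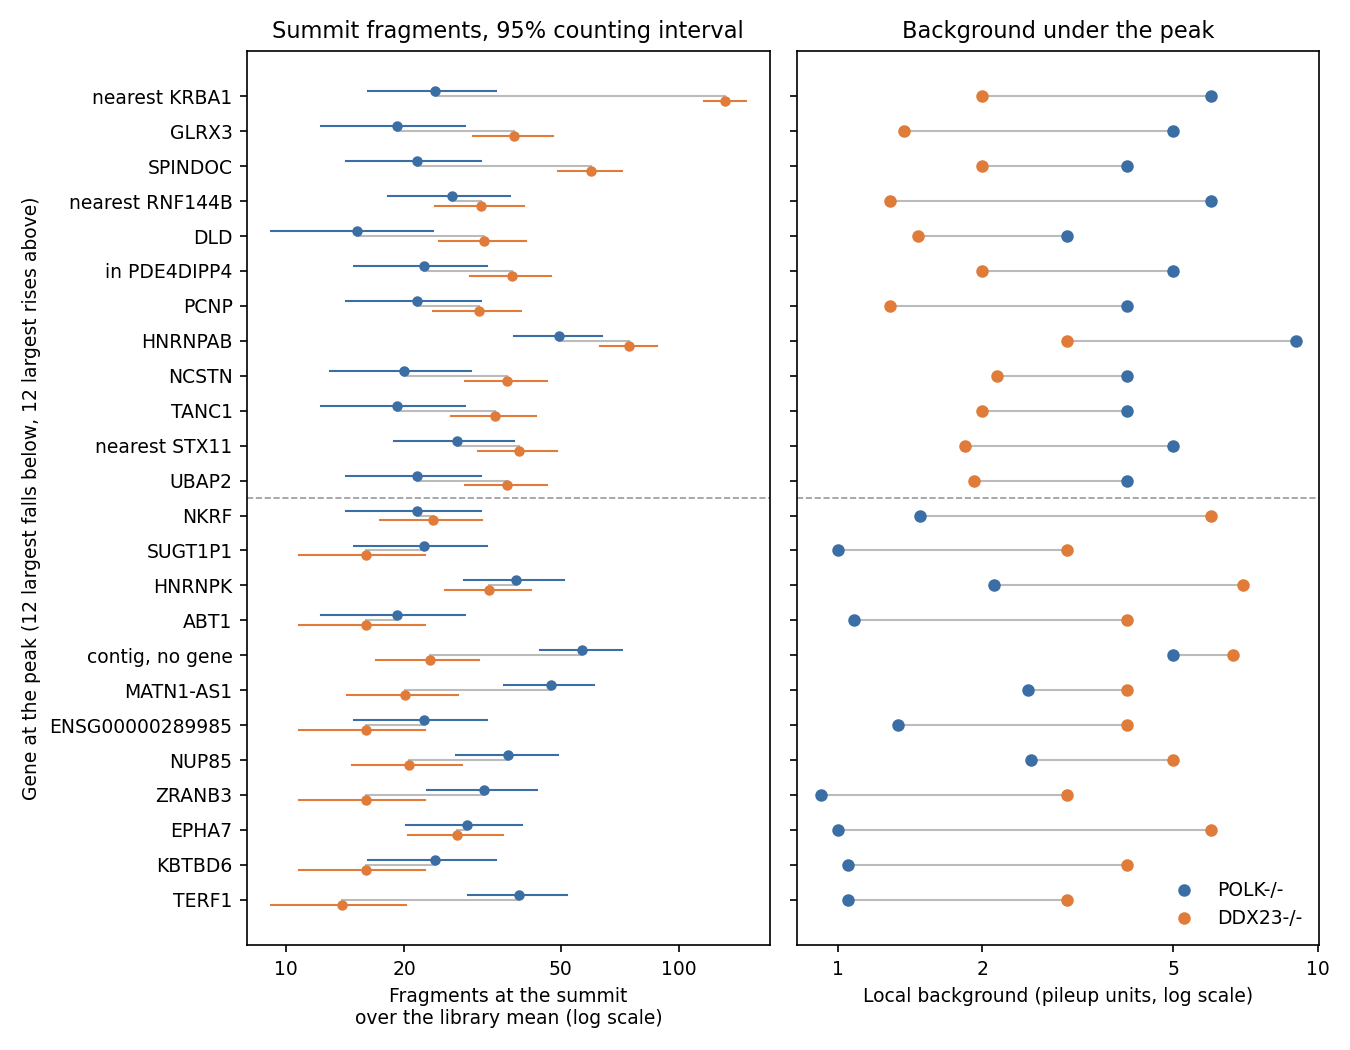
Fragment level at the summit with its 95% counting interval (left, log scale) and local background (right, pileup units, log scale) of the 12 largest rises and 12 largest falls of percentile rank, POLK-/- in blue and DDX23-/- in orange. In the upper 12 the background is lower in DDX23-/- at each pair, and in the lower 12 it is higher, whereas the intervals of the levels lie apart in 4 of each 12.

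Other Pol III genes were read from a list of small RNAs with upstream promoters, all 12 of which had a pair. Their median fold was 25.4 in POLK-/- and 47.3 in DDX23-/-, the ratio of levels was 1.14 (0.941 to 2.32), and intervals lay apart upward in 4 and downward in 2 (7.42% and 4.9% over all pairs). The Y RNAs are partners of the Ro60 protein. RNY4 (chr7:148660384-148660754) went from 40 to 197 fragments (3.17 times by level), RNY5 from 67 to 252 (2.42) and RNY1 from 127 to 336 (1.70), and RNY3 went from 365 to 389 (0.685), at the ceiling of 390, where no larger ratio could be measured. For RNY4 the WT level was 2.836 times POLK-/-, and DDX23-/- was 1.113 times WT, so there WT lay near DDX23-/-. RNU6-1, a U6 gene, rose from 53 to 191 fragments (2.32), while RNU6ATAC of the minor spliceosome had 86 and 84 (0.628), and RN7SK, which holds the kinase P-TEFb, had 181 and 265 (0.941). Vault, 7SL and BC200 RNAs had pairs at 5 of 6 genes, with median folds of 37.0 and 70.1. Their median ratio of levels was 1.04, and in the fragments no gene of this list was higher with intervals apart and 1, VTRNA1-2, was lower. VTRNA1-1 and VTRNA1-2 are also among the tRNA-type pairs. VTRNA1-2 went from fold 31.1 to 83.9 with a ratio of levels of 0.718 and a background of 7 and 2.0. Its fragments were 336 and 375, the latter near the ceiling of 390. RN7SL2 went from 37.0 to 83.6 with 0.872 and a background of 4 and 1.69, and BCYRN1 from 51.4 to 36.8 with 1.04 and a background of 1.14 and 3.33. Pol II snRNA genes had pairs at 12 of 33, with folds of 13.6 and 16.3 and a ratio of levels of 0.882. Of these RNU5B-1 went from 26 to 97 fragments (2.4) and RNU4-2 from 303 to 320 (0.679).

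Lists of coding genes are read beside the gene-start class, whose median ratio of levels was 1.17. Genes of DNA replication and translesion synthesis had 18 pairs at 17 of 59 genes, with a median fold of 7.07 and 12.7, a ratio of levels of 1.43 (1.13 to 1.61), and a rise of 25 points in 13 pairs, against 634 of the 1536 gene-start pairs. No pair of this list had intervals apart in either direction. CLSPN, the checkpoint adaptor claspin, went from 4.48 to 12.5 on 23 and 60 fragments, and POLE2, a subunit of DNA polymerase ε, from 3.73 to 12.1 on 24 and 42. POLI, another Y-family polymerase, went from 6.14 to 14.0 on 32 and 47, and MCM2 of the replicative helicase from 5.49 to 3.63 on 21 and 26. Cytosolic ribosomal protein genes had pairs at 20 of 86, with folds of 6.75 and 6.89 and a ratio of levels of 1.00, and mitochondrial ribosomal protein genes at 15 of 77, with 1.04. Spliceosome genes, the machine DDX23 belongs to, had pairs at 23 of 115 with a ratio of 1.02. Intervals lay apart upward in 2 of them (8.7%, beside 6.18% of gene-start pairs). These were LSM7 of the U6-binding ring with 18 and 67 fragments (2.39) and SNRNP25 of the minor spliceosome with 33 and 95 (1.85). The SNRNP25 peak is also that of POLR3K. DEAD/DEAH helicase genes had pairs at 12 of 58 with 1.32. Of these, 5 rose by 25 points (41.7%, close to the 41.3% of gene-start pairs), among them DDX41 (3.60 to 12.1) and DDX1 (18 and 56 fragments, 2.0). RNA polymerase subunits had 10 of 34 with 1.13, with POLR2A going from fold 5.32 to 15.5 on 42 and 69 fragments (ratio of levels 1.06, background 5 and 2). The POLR3E peak, from 68.6 to 50.1, held a tRNA-type site and so is a tRNA-type pair, not a gene-start pair.

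Translation initiation factor genes had pairs at 14 of 47 with a ratio of levels of 1.01, and proteasome genes 11 pairs at 10 of 48. Immediate early and stress genes had pairs at 10 of 31, with intervals apart upward in 1 and downward in 1 (6.18% and 1.3% of gene-start pairs). FOSL2 went from 25 to 92 fragments (2.37, intervals apart upward) and JUN from 80 to 75 (0.603, apart downward). The related JUNB (1.64) and JUND (0.933) had overlapping intervals. Pairs were also found at histone genes (4 of 64), chromosome 19 zinc finger genes (4 of 246), small nucleolar RNA host genes (3 of 30) and HOX genes (1 of 39, HOXB8, fold 15.9 and 19.7). The share of all genes with a pair was not counted, so the shares of these and the other lists are not read as high or low. GC content moved with the ratio. From the lowest to the highest of 5 groups by GC, gene-start pairs had ratios of levels of 1.03, 1.11, 1.16, 1.29 and 1.29, and over all 2265 pairs rho was 0.307 for the fragment ratio and 0.220 for the fold ratio. Its part in the class and list differences was not tested.

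NTHL1, a DNA glycosylase of base excision repair, held 5 pairs within its 8052 bp on chromosome 16 and was singled out after its values were seen. The fragments were 117, 172, 182, 289 and 131 in POLK-/- and 57, 84, 82, 194 and 73 in DDX23-/-. All 5 had a lower level in DDX23-/-, with intervals apart and ratios of 0.29 to 0.43. The deposited fold did not follow, at 14.5, 15.95, 10.4, 11.25 and 6.50 in POLK-/- and 10.9, 14.1, 6.12, 18.4 and 9.83 in DDX23-/-, lower at 3 and higher at 2. The POLK-/- summits lay in 5 different coding exons of the 7 of the gene, and 4 of the 5 DDX23-/- summits were in a coding exon as well, whereas 141 of all 2265 pairs (6.23%) had a POLK-/- summit in one. The backgrounds also differed, at 5, 7, 12, 18 and 14 in POLK-/- and 2.55, 3, 8, 6 and 4 in DDX23-/-. No WT peak overlapped the gene. Other low ratios of levels were 0.26 near OR6S1 (42 and 17 fragments) and 0.293 at LINC02482 (112 and 51).

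Paired peaks were wider in DDX23-/-, and their summits stayed close. The median width was 357 bp in POLK-/- and 468 bp in DDX23-/-, with a median ratio of 1.21 (1.196 to 1.237), and 1683 pairs (74.3%) were wider. A DDX23-/- peak at least 1.5 times wider was found in 612 pairs (27.0%) and one as much narrower in 55 (2.43%). The part of depth in the widths was not tested. The median distance between summits was 29 bp (28 to 31), 1634 pairs (72.1%) lay within 50 bp and 71 (3.13%) were over 200 bp apart. The signed shift had a median of −1 bp (−3 to 1). Along the gene, the summits of gene-start pairs lay 13 bp after the start in both lists, with a shift of 2 bp (−1 to 4), downstream in 791 and upstream in 735. Among 1-to-1 pairs, the largest shifts were at tRNA-type sites, at KCTD2 (−1214 bp), CTC1 (−627 bp) and PLLP (623 bp). Among 1-to-1 pairs, the largest growth in width was at SIX2, a kidney progenitor factor, from 218 to 1128 bp (fold 7.70 and 25.2, 25 and 93 fragments), then CLSPN from 222 to 1024 bp and NCAPG2 from 219 to 972 bp.

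**Figure D5:**
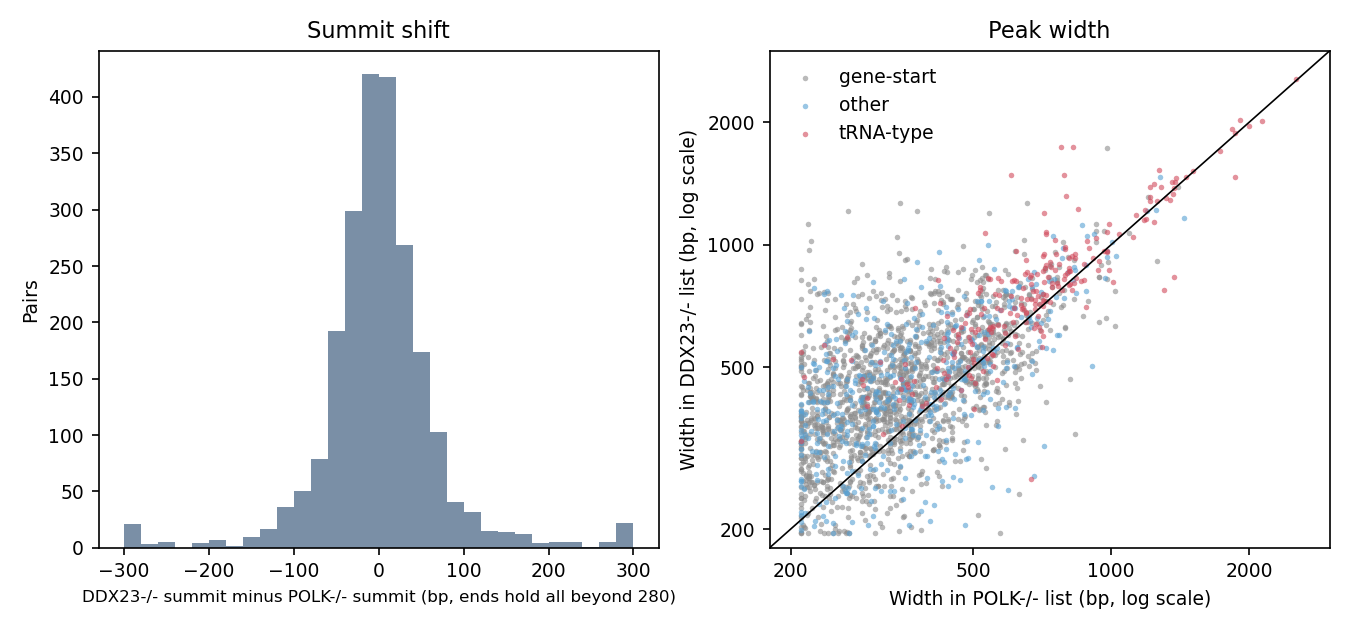
Left, number of pairs by the position of the DDX23-/- summit minus that of POLK-/- in bp, with the end bars holding all larger shifts. Right, peak width in bp in the POLK-/- list (x axis) and the DDX23-/- list (y axis), both log scales, with the line of equal width, above which 1683 of the 2265 pairs lie.

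The 186 unpaired POLK-/- peaks were the weaker ones, with a median fold of 6.05 (5.89 to 6.39), 278 bp in width and a GC content of 57.0%, against 64.4% for the pairs. A coding gene start lay within 1 kb of 82 of them (44.1%), against 69.5% of the pairs. The 3689 unpaired DDX23-/- peaks had a median fold of 6.42, a width of 293 bp and a GC content of 67.6%, and 73.0% were near a start.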

How the data were processed

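Peak lists of 3 genotypes were analysed. In them the authors deposited a fold (ratio), the −log10 of p and of q, and a score that holds the −log10 q multiplied by 10. The submitters' processing notes name Bowtie2, MACS2, bedtools, deepTools and hg19. The SI Appendix gives Bowtie2 and Picard duplicate removal for the Pol κ ChIP-Seq. The threshold, control and pooling of the peak calls are not given in the sources used here.

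Peaks were paired by overlap, ranked by fold, and named from GENCODE 44 on GRCh37. The gene was that with a start within 1 kb of the summit (coding first), else the gene holding it, else the nearest coding gene. Fragments and background were recovered from fold and p with the MACS2 formulas (tolerance 0.01 in −log10 p). Recovery was tested on simulated data, where at least 96.0% of peaks were exact. The genome-wide level was the lowest background shared by 2% of the peaks of a list. Python 3.11.15, numpy 2.4.6, scipy 1.17.1, pandas 2.3.3 and matplotlib 3.10.9 were used.

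Named were the 12 largest rises and falls of rank, the 10 smallest rank sums, the 5 highest and lowest fold ratios, the 3 largest shifts and widths among 1-to-1 pairs, pairs near POLK or DDX23, and members of gene lists. The members and lists were chosen with earlier results of these data known. The anticodon groups, the ratios of fragment levels, the WT comparison and NTHL1 were chosen after values were seen.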

Additional observations from a re-analysis of the deposited data

How the results depend on the processing

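Under 74 alternatives for 11 results, 54 values moved by less than their interval or margin, 18 moved further and 2 reversed. Ranked among the pairs alone, the median change of rank was −0.55 (against 14.7), 340 pairs rose and 321 fell by 25 points. Gains and losses of rank balance by construction in that setting, so the loss of the general rise was built in. Using fragments over the library mean, a measure chosen after seeing the data, the ratio was 0.904 at tRNA-type pairs (fold 1.24), 1.17 at gene-start pairs, 1.15 at others and 1.13 over all pairs, 64.9% of pairs were higher in DDX23-/- and rho was 0.781. Without the added 1 the median ratio was 1.39 over all pairs, 1.44 at gene-start pairs and 1.31 at others, 72.4% were higher and rho was 0.539. Keeping peaks whose q reached 1e-05, the ratio was 1.40 and the summit distance 27 bp. With a reciprocal overlap of 50% the change of rank was 12.8, the width ratio 1.17 and rho 0.661. Ranked by p, 41 pairs fell. The causes of these moves were not tested, beyond what each measure leaves out. No paired analysis was possible because there is 1 peak list per genotype. For the same reason no library could be left out, and the spread between cultures is unknown.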
